A study of Cannabis sativa with 12 samples.

Results

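The 41 contigs described here encode enzymes that modify pectin, proteins that inhibit these enzymes, and a wall protein of the DUF642 family, in hypocotyls of hemp (Cannabis sativa). They were taken from a table of 3622 contigs, the assembled transcript sequences of the study. A contig was a member if its annotation contained pectin, pectate, polygalacturonase, rhamnogalacturon or DUF642, which also takes in the pectin acetylesterases (40 contigs), or if it was named by its number (the contigs of AT5G47500, AT4G23820 and AT5G25460) or carried the locus AT5G63180 or AT5G20860. The contig of AT5G25460, the only DUF642 member, entered by its number alone, because the first letter of the family name is missing from its description. The members were 16 pectin methylesterases, 11 polygalacturonases, 5 inhibitors of pectin methylesterase or invertase, 3 pectate lyases, 2 pectin acetylesterases, 1 inhibitor of polygalacturonases, the DUF642 contig, and a rest of 2 contigs (a pectin methyltransferase and a polygalacturonase beta subunit homolog). No annotation contained rhamnogalacturon.

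Whole hypocotyls of the fibre cultivar Santhica 27 were collected at 6 (H6), 9 (H9), 15 (H15) and 20 (H20) days from sowing, with 3 libraries per time point and 20 hypocotyls pooled in each library. All plants grew untreated in 1 experimental batch in incubators set to 25°C for 16 h of light and 20°C for 8 h of darkness, and age is the only difference the labels give between the groups. The libraries held 13413472 to 25855413 mapped reads, of which 4772204 to 8422688 fell in the 3622 contigs, and the members were covered by 11 to 55968 reads per library. The authors kept contigs that varied across these same libraries, so every call below is a call within contigs already selected for change. RNA came from the whole organ, in which fewer cells of a type and less RNA per cell cannot be told apart.

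Pectin is the gel-forming polysaccharide of the primary wall and of the middle lamella that glues cells together. Its main chain, homogalacturonan, is made in the Golgi with most of its acid groups methylesterified. In the wall, pectin methylesterases remove the methyl groups, after which the chain can be crosslinked by calcium and stiffen, or be cut by polygalacturonases (which hydrolyse the chain) and pectate lyases (which cleave it by elimination). Pectin acetylesterases remove acetyl groups, and small inhibitor proteins block methylesterases or invertases. In elongating hypocotyls these reactions set how extensible the wall is, and in stems with bast fibers they also bear on how growing fibers intrude between their neighbours. DUF642 proteins are secreted wall proteins of seed plants, and an Arabidopsis member of the family alters methylesterase activity.

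The members moved mainly between H6 and H15 and in both directions, as all contigs did. Calls required an edgeR adjusted p below 0.05 and a log2 fold change (FC) over 1 in either direction. From H6 to H9, 8 members rose and 9 fell, together 41.5% of the 41 against a background of 36.0% of all contigs, 17.9% higher and 18.2% lower. From H9 to H15, 14 rose and 9 fell (56.1%, background 43.5%, with 22.7% higher and 20.8% lower), and from H15 to H20, 4 rose and 4 fell (19.5%, background 13.6%, with 5.25% higher and 8.31% lower). Over the whole interval, H20 against H6, 20 members rose and 11 fell (75.6%, background 71.6%). The share of rises in that comparison was 48.8% among the members and 34.2% among all contigs, and the share of falls 26.8% and 37.4%.

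Of the 41, 5 stood in the rule by number or locus, and the study had picked these 5 for their change between H6 and H20, so their part in that count is a description. Among the 36 others, 18 rose and 8 fell. The median log2 FC from H6 to H20 was 0.79 over all members and 0.96 over these 36, beside -0.58 over all contigs. Counts of highest mean RPKM (reads scaled to contig length and to the mapped reads of the library) leaned to the same end of the series. The mean was highest in H20 for 15 members (36.6%, against 20.0% of all contigs), in H6 for 11 (26.8% against 40.6%), in H9 for 9 (22.0% against 19.6%) and in H15 for 6 (14.6% against 19.8%). The summed RPKM of all 41 members went the other way. It was 3331 to 3565 in H6, 3370 to 3714 in H9, 2170 to 2443 in H15, then 2406 to 2529 in H20.

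**Figure D1:**
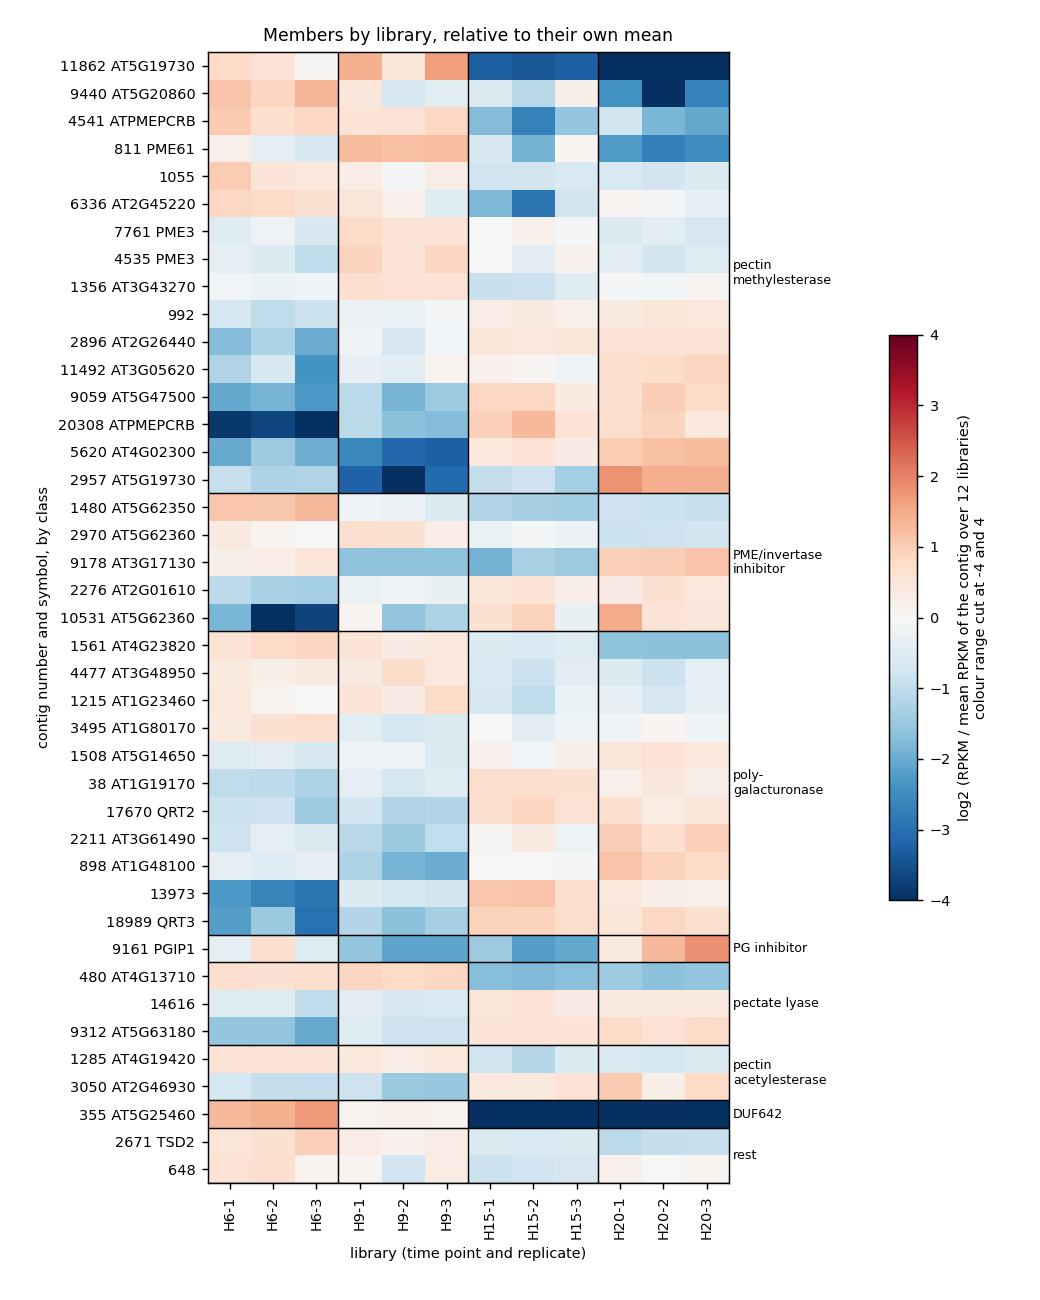
RPKM of the 41 members in the 12 libraries, on a log2 scale relative to each contig's own mean, with rows grouped by class and columns by time point (red above the mean, blue below it, colour range cut at -4 and 4). Within the methylesterases and the polygalacturonases, contigs that are red on the left (H6 and H9) stand beside contigs that are red on the right (H15 and H20), and the DUF642 row turns from red to the darkest blue between H9 and H15.

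The order of the H15 libraries differed between members that were higher in H9 and members that were higher in H20. Of 13 members with a mean in H9 over 2 times that in H20, H15-3 was the highest of the H15 libraries in 11 and H15-2 the lowest in 11. Of 13 members with the opposite order, H15-2 was the highest in 9 and H15-3 the lowest in 9. The same order ran through all contigs, where H15-3 was the highest in 55.9% of 1119 contigs of the first kind and the lowest in 55.7% of 805 contigs of the second.

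Summed over a class, the RPKM of the methylesterases peaked in H9, that of the polygalacturonases in H20, and those of the inhibitors of methylesterase or invertase, the acetylesterases and the DUF642 contig in H6. With 3 libraries against 3, an exact permutation test cannot give a p below 0.10, so the sums are given as descriptions. The 16 methylesterases summed to 764 to 1101 RPKM in H6, 1731 to 1891 in H9, 846 to 1187 in H15, then 882 to 893 in H20. Contig 811 alone held 63.5% of the H9 sum. Without it the sum lay at 446 to 532 RPKM in H6, 609 to 700 in H9, 664 to 711 in H15, then 777 to 818 in H20, so the peak in H9 rested on this contig.

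**Figure D2:**
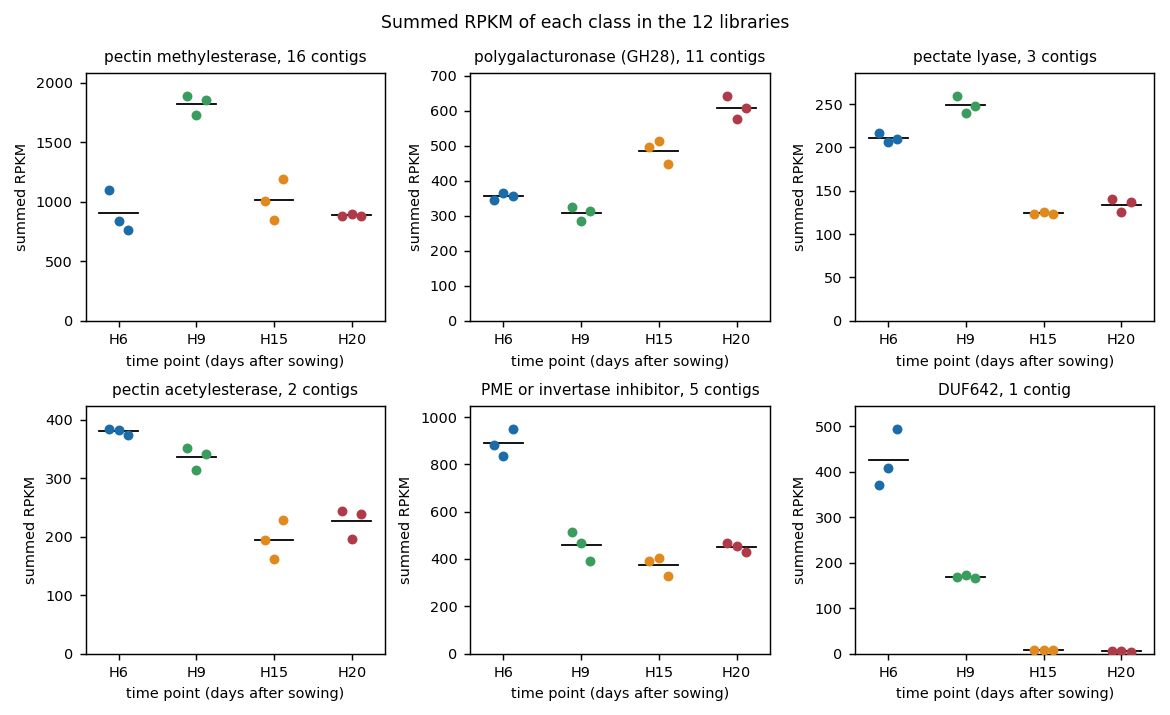
Summed RPKM of 6 classes (one panel each, y axis from 0) in the 12 libraries, with points for libraries, colours for time points and black bars for the means of 3 libraries. The methylesterase sum is highest in H9 (1731 to 1891), the polygalacturonase sum in H20 (576 to 642), and the DUF642 value falls from 371 to 495 in H6 to 4.11 to 5.69 in H20.

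The 16 pectin methylesterases moved in both directions, as all contigs did. Between H6 and H20, 7 rose (contigs 992, 2896, 2957, 5620, 11492, 20308 and that of AT5G47500) and 5 fell (811, 1055, 4541, 9440 and 11862), while 1356, 4535, 6336 and 7761 did not pass. The share called was 75%, near the 71.6% of all contigs, with 43.8% higher and 31.2% lower against 34.2% and 37.4%, and the contigs of AT5G47500 and AT5G20860 (9440) among them had been selected for this difference. On the steps, 6 rose and 3 fell from H6 to H9 (56.2% called, background 36.0%), 4 rose and 5 fell from H9 to H15 (56.2%, background 43.5%), and 2 rose and 3 fell from H15 to H20 (31.2%, background 13.6%). Contigs 1356, 2896, 4541, 5620, 6336, 9440, 11492 and 20308 were annotated as pectinesterase/pectinesterase inhibitor with a number. They were counted as methylesterases, and their annotation is shortened to pectinesterase here.

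Contig 811, annotated as pectinesterase 35 (PME61), was the most abundant member. In Arabidopsis this gene acts in the supporting tissue of the stem, where it contributes to mechanical strength. It read 569, 383 and 318 RPKM in H6, 1191, 1122 and 1165 in H9, 318, 135 and 524 in H15, and 105, 75.5 and 89.7 in H20. The H9 libraries lay above all others and the H20 libraries below all others, while H6 and H15 overlapped and H15 was the most scattered. The contig rose from H6 to H9 (log2 FC 1.44, SE 0.36, edgeR adjusted p = 0.0029), then fell to H15 (log2 FC -1.70, SE 0.36, edgeR adjusted p = 8.2e-04) and again to H20 (log2 FC -1.87, SE 0.36, edgeR adjusted p = 0.0014).

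Contig 992, a methylesterase without a symbol, took over as the most abundant one. Its RPKM was 189, 150 and 167 in H6, 261, 254 and 290 in H9, 376, 389 and 347 in H15, and 390, 431 and 411 in H20. No 2 time points overlapped, and each lay above the one before. No step passed the fold limit, but the whole interval did, with a rise of 2.61-fold (log2 FC 1.38, SE 0.12, edgeR adjusted p = 1.6e-07). In H20 this contig held 46.4% of the methylesterase sum.

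A further contig matched AT5G47500 (PME5), which in Arabidopsis takes part in organ initiation at the shoot apex. It lay at 6.43, 7.23 and 5.40 RPKM in H6, 12.7, 7.34 and 9.84 in H9, 46.7, 47.3 and 34.2 in H15, and 42.1, 52.9 and 45.7 in H20. All libraries of H15 and H20 exceeded all of H6 and H9, and the H15 and H20 ranges overlapped. The rise fell on the step from H9 to H15 (log2 FC 2.24, SE 0.21, edgeR adjusted p = 9.9e-07). H20 stood 7.91-fold above H6, a value given as a description because the contig was selected for that difference.

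Contig 9440 (AT5G20860, annotated as pectinesterase 54) took the opposite course. It measured 17.0, 14.1 and 20.0 RPKM in H6, 10.7, 4.89 and 5.79 in H9, 5.21, 3.60 and 9.22 in H15, and 1.46, 0.44 and 1.19 in H20. H6 lay above and H20 below every other library, and H9 and H15 overlapped. It fell from H6 to H9 (log2 FC -1.27, SE 0.39, edgeR adjusted p = 0.0095) and from H15 to H20 (log2 FC -2.52, SE 0.44, edgeR adjusted p = 6.6e-04), where 14 to 63 reads remained per library.

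Contig 5620 (AT4G02300, annotated as pectinesterase 39) gave the largest called rise of a methylesterase from H9 to H15. It read 6.76, 9.91 and 7.06 RPKM in H6, 4.59, 3.09 and 2.83 in H9, 36.5, 39.6 and 34.0 in H15, and 55.4, 62.1 and 65.2 in H20. H9 was the lowest time point and H20 the highest, with no overlap between any of them. The step from H9 to H15 was 11.6-fold (log2 FC 3.53, SE 0.19, edgeR adjusted p = 2.8e-08). The preceding fall (log2 FC -1.19) missed the fold limit in DESeq2 (-0.96) and in limma on log2(RPKM + 1) (-0.99).

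**Figure D3:**
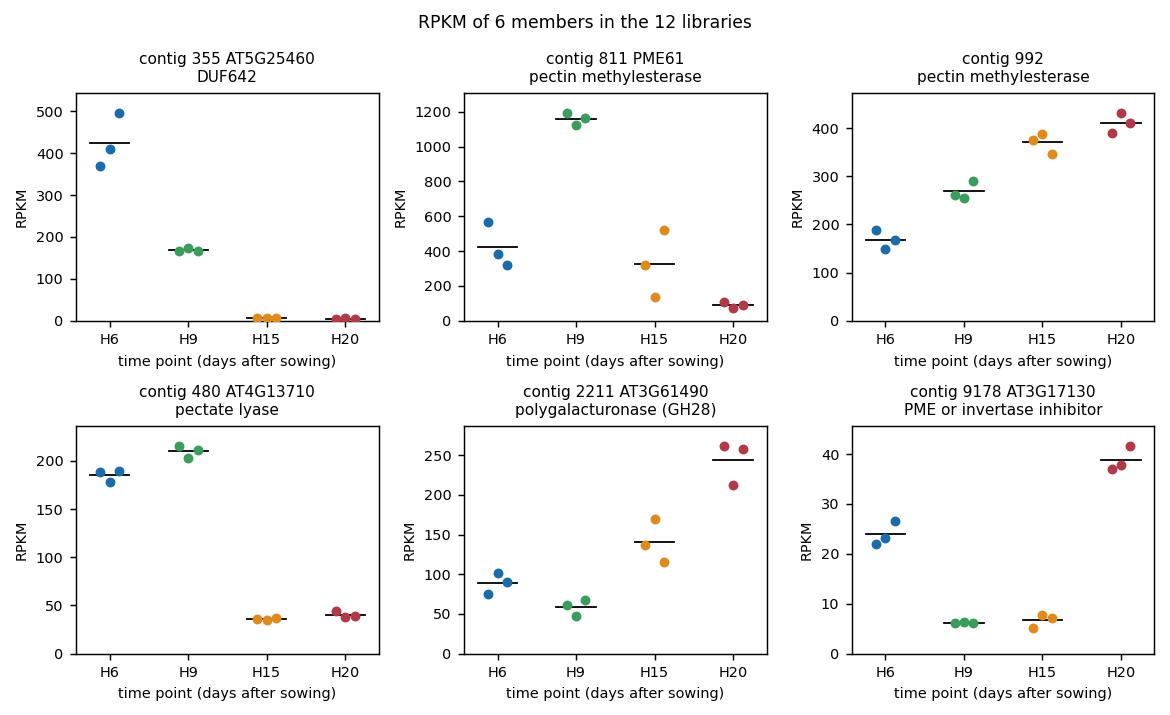
RPKM of 6 members (one panel each, y axis from 0) in the 12 libraries, with points for libraries, colours for time points and black bars for means of 3 libraries. Contig 811 peaks in H9 (1122 to 1191), 992 climbs at each time point, the DUF642 contig and 480 drop between H9 and H15, 2211 climbs from H9 to H20, and 9178 is low in H9 and H15 (5.14 to 7.72) and high at both ends.

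The other methylesterases were lower. Contigs 2896 (pectinesterase 12) and 11492 (pectinesterase 22) rose from H6 to H9 and from H6 to H20, to means of 13.7 and 14.4 RPKM in H20. The rise of 11492 from H6 to H9 (log2 FC 1.06) missed the fold limit without H6-3 (0.71), without H9-3 (0.84) and in limma on log2(RPKM + 1) (0.96). Contig 1055 fell from a mean of 79.6 RPKM in H6 to 31.9 in H20 (log2 FC -1.22), a call that was lost in DESeq2 (-0.92) and in a fit of the 6 libraries alone (-0.97). Contig 1356 (pectinesterase 32) was highest in H9, with 98.9 RPKM on average, and fell to H15 (log2 FC -1.20). Contig 6336 (pectinesterase 17) fell from H9 to H15 (log2 FC -1.53) and rose again to H20 (log2 FC 1.42), with 7.41, 3.43 and 15.4 RPKM in the H15 libraries.

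There were 4 gene symbols that a pair of contigs carried, and in 2 of these pairs both contigs changed, in opposite directions, between H6 and H20. Such contigs may be paralogs or fragments of the same transcript, which was not tested, as their sequences were not at hand. For AT5G19730 (pectinesterase 53), contig 2957 read 6.31, 5.05 and 5.17 RPKM in H6, 1.26, 0.51 and 1.38 in H9, 6.1, 6.77 and 4.69 in H15, and 41.1, 32.6 and 32.0 in H20. Contig 11862 read 15.0, 12.9 and 8.84 in H6, 22.7, 12.0 and 27.2 in H9, 0.86, 0.80 and 0.89 in H15, and 0.37, 0.46 and 0.38 in H20. In every library of H6 and H9 contig 11862 was the higher one, and in every library of H15 and H20 it was contig 2957.

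Contig 11862 exceeded 2957 by 18.0-fold to 23.6-fold in H9, and in H20 contig 2957 exceeded 11862 by 70.9-fold to 111-fold. Contig 2957 fell from H6 to H9 (log2 FC -2.39, SE 0.30, edgeR adjusted p = 1.4e-05), rose to H15 (log2 FC 2.61) and rose again to H20 (log2 FC 2.56, SE 0.25, edgeR adjusted p = 9.1e-06). Contig 11862 fell from H9 to H15 by 22.1-fold (log2 FC -4.47, SE 0.33, edgeR adjusted p = 1.9e-07). Its further fall to H20 (log2 FC -1.11, edgeR adjusted p = 0.048), at 11 to 30 reads per library, did not pass when any 1 of the 6 libraries was left out (adjusted p 0.076 to 0.12) or in either limma fit (log2 FC -0.40 and -0.92).

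The pair annotated as ATPMEPCRB (pectinesterase 41) crossed in the same order. Contig 20308 read 1.38, 1.56 and 1.23 RPKM in H6, 9.61, 6.43 and 6.06 in H9, 39.1, 49.0 and 29.3 in H15, and 32.9, 37.2 and 27.2 in H20. Contig 4541 read 16.7, 12.5 and 14.1 in H6, 11.7, 11.9 and 14.2 in H9, 2.43, 1.23 and 2.76 in H15, and 4.59, 2.28 and 1.93 in H20. Contig 4541 was the higher one in each H6 and H9 library and contig 20308 in each H15 and H20 library. From H6 to H20, contig 20308 rose 25.0-fold (log2 FC 4.64, SE 0.27, edgeR adjusted p = 6.9e-09), the largest rise of all members, and 4541 fell 4.54-fold (log2 FC -2.18, SE 0.33, edgeR adjusted p = 2.9e-05).

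The PME3 contigs went together. PME3 is a widely expressed methylesterase in Arabidopsis. Both contigs peaked in H9, 7761 at 75.0 to 87.8 RPKM and 4535 at 47.7 to 61.6, and contig 7761 exceeded 4535 by 1.24-fold to 2.36-fold in the 12 libraries. Contig 4535 rose from H6 to H9 (log2 FC 1.39, SE 0.20, edgeR adjusted p = 4.0e-05), and so did 7761 (log2 FC 1.06, SE 0.13, edgeR adjusted p = 1.3e-05), whose value fell below the fold limit without H6-3 (0.98) or without H9-1 (0.997). Neither passed the test between H6 and H20 (log2 FC 0.18 and -0.02, SE 0.20 and 0.13).

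**Figure D4:**
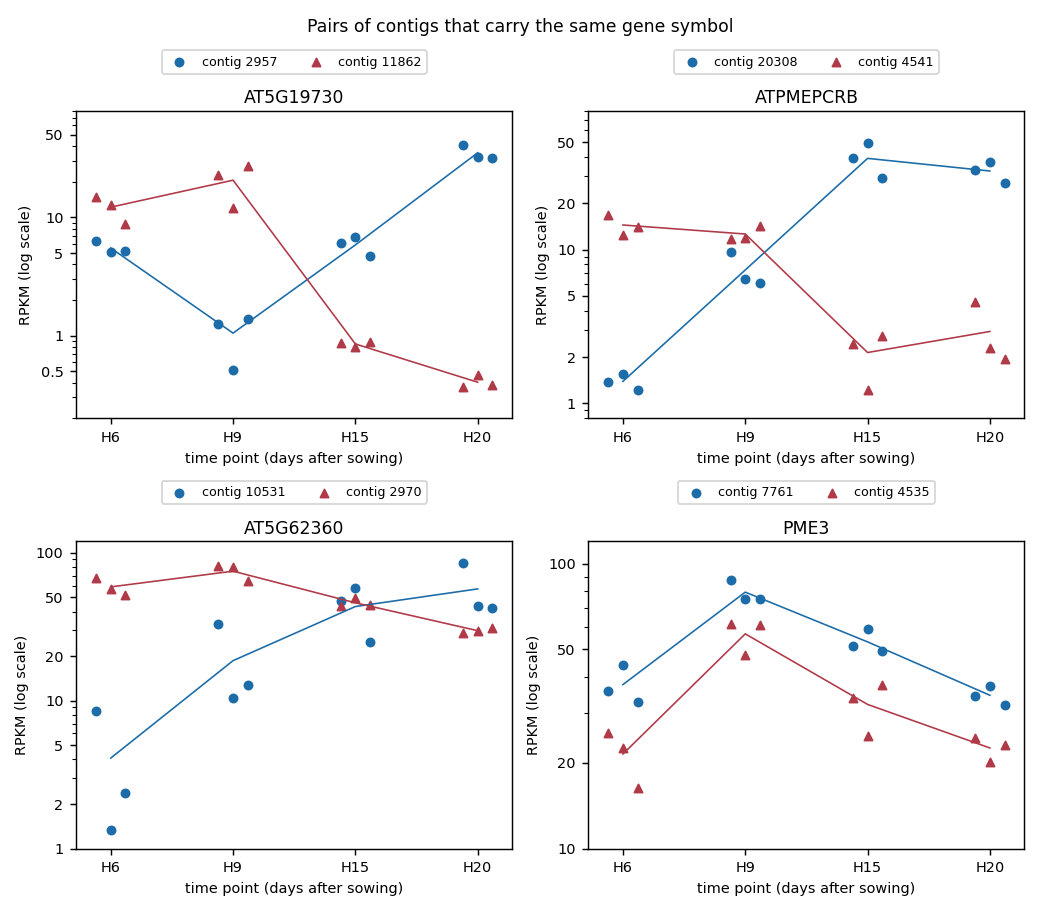
RPKM (log scale) of the pairs of contigs that share a symbol, in the 12 libraries, with points for libraries and lines through the means of each time point. The lines of AT5G19730 and of ATPMEPCRB cross between H9 and H15, those of AT5G62360 meet in H15, and those of PME3 run side by side.

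Of the 5 contigs annotated as inhibitors of pectin methylesterase or invertase, 2 rose (2276 and 10531) and 1 fell (1480) between H6 and H20. The share called was 60%, beside 71.6% of all contigs, with 40% higher and 20% lower against 34.2% and 37.4%. The family name covers proteins that inhibit either enzyme, and the annotation does not tell which enzyme each of these blocks. Their sum was 835 to 952 RPKM in H6, 391 to 513 in H9, 329 to 404 in H15, then 431 to 469 in H20, and contig 1480 held 85.2% of it in H6.

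Contig 1480 (AT5G62350) was the most abundant member of all in H6. It lay at 734, 710 and 831 RPKM in H6, 307, 278 and 224 in H9, 147, 135 and 128 in H15, and 188, 187 and 177 in H20. No time points overlapped, and H15 was the lowest. The fall from H6 to H9 was 2.85-fold (log2 FC -1.51, SE 0.12, edgeR adjusted p = 3.8e-07), and over the whole interval it was 3.84-fold (log2 FC -1.94, SE 0.12, edgeR adjusted p = 1.0e-08).

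Contig 2276 (AT2G01610) moved the other way. It measured 50.8, 42.5 and 40.4 RPKM in H6, 86.1, 93.9 and 84.4 in H9, 147, 153 and 124 in H15, and 130, 159 and 139 in H20. H15 and H20 overlapped and both lay above H9, which lay above H6. The step from H6 to H9 (log2 FC 0.97) was short of the fold limit and passed it without H6-1 (1.08) and in DESeq2 (1.20). The interval from H6 to H20 gave 3.43-fold (log2 FC 1.78, SE 0.13, edgeR adjusted p = 5.1e-08).

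Contig 9178 (AT3G17130) was high at both ends. It read 22.0, 23.3 and 26.6 RPKM in H6, 6.21, 6.24 and 6.13 in H9, 5.14, 7.72 and 7.05 in H15, and 36.9, 37.7 and 41.6 in H20. H9 and H15 overlapped at the low level, and H20 lay above H6. The contig fell from H6 to H9 (log2 FC -1.97, SE 0.17, edgeR adjusted p = 6.7e-07) and rose from H15 to H20 (log2 FC 2.51, SE 0.17, edgeR adjusted p = 3.3e-07), the latter in a comparison where 5.25% of all contigs rose.

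The AT5G62360 contigs differed in level and in scatter. Contig 10531 read 8.56, 1.34 and 2.36 RPKM in H6, 32.9, 10.3 and 12.7 in H9, 47.1, 57.8 and 24.8 in H15, and 85.0, 43.7 and 42.0 in H20, with the first library the highest in H6, H9 and H20. It rose from H6 to H9 (log2 FC 2.20, SE 0.63, edgeR adjusted p = 0.0068). This log2 FC was 3.30 without H6-1 and 1.52 without H9-1, and both passed. The next rise (log2 FC 1.36, edgeR adjusted p = 0.040) was lost when H9-2, H9-3, H15-1 or H15-2 was left out (adjusted p 0.080 to 0.14), without TMM scaling of the libraries, in DESeq2 and in limma on log2(RPKM + 0.1) (adjusted p 0.062 to 0.065), and its libraries overlapped. Over the whole interval the log2 FC was 3.93 (SE 0.65, edgeR adjusted p = 6.6e-05), and 5.04 without H6-1. Contig 2970 ranged from 51.9 to 80.8 RPKM in H6 and H9 and from 28.6 to 31.0 in H20, with a log2 FC of -0.88 from H6 to H20 that missed the fold limit.

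The DUF642 contig had the largest change of all members. It carries the symbol AT5G25460, and its description names a protein that responds to l-galactono-1,4-lactone, the last precursor of vitamin C. Its RPKM was 371, 409 and 495 in H6, 168, 173 and 166 in H9, 7.20, 7.13 and 7.57 in H15, and 4.51, 5.69 and 4.11 in H20. No time points overlapped, and each lay below the one before. The contig fell by 2.54-fold from H6 to H9 (log2 FC -1.35, SE 0.13, edgeR adjusted p = 1.6e-06) and by 21.0-fold from H9 to H15 (log2 FC -4.39, SE 0.15, edgeR adjusted p = 7.7e-10). The last step (log2 FC -0.65, edgeR adjusted p = 0.0029) missed the fold limit. H20 stood 83.9-fold below H6, again a description of a contig selected for it.

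Of the 11 polygalacturonases, 63.6% rose and 9.09% fell from H6 to H20, where 34.2% of all contigs rose and 37.4% fell. The 7 that rose were 38, 898, 1508, 2211, 13973, 17670 and 18989, the 1 that fell was the contig of AT4G23820, selected for that difference, and 1215, 3495 and 4477 did not reach the fold limit (log2 FC -0.53, -0.54 and -0.80). On the step from H9 to H15, 6 of the 11 (54.5%) were called higher, where 22.7% of all contigs were. These 6 were among the 7 that rose over the whole interval, which includes this step. The other of the 7 was 1508, whose call over the whole interval (log2 FC 1.14) was lost in limma on log2(RPKM + 1) (0.97). The sum of the class was 344 to 366 RPKM in H6, 284 to 325 in H9, 449 to 512 in H15, then 576 to 642 in H20, and no time points overlapped. Contigs 38, 1508 and 4477 were annotated only as pectin lyase-like superfamily proteins and were placed in this class here.

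Contig 2211 (AT3G61490) was the most abundant polygalacturonase. It read 75.7, 101 and 89.9 RPKM in H6, 61.4, 47.6 and 67.3 in H9, 137, 169 and 116 in H15, and 261, 213 and 258 in H20. H9 was the lowest and H20 the highest time point, without overlap. It rose from H9 to H15 (log2 FC 1.40, SE 0.18, edgeR adjusted p = 1.5e-05), and in H20 it made up 40.2% of the class sum.

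Contig 898 (AT1G48100, PGX3 in Arabidopsis, where it acts in the walls of guard cells) had the same shape. It measured 53.9, 48.1 and 54.0 RPKM in H6, 29.5, 18.9 and 17.3 in H9, 70.8, 68.6 and 65.5 in H15, and 151, 132 and 122 in H20. No time points overlapped, and H9 was the lowest. It fell from H6 to H9 (log2 FC -1.26, SE 0.17, edgeR adjusted p = 2.6e-05) and rose to H15 (log2 FC 1.78, SE 0.17, edgeR adjusted p = 1.3e-06). The step to H20 (log2 FC 0.96) missed the fold limit, and passed it in DESeq2 (1.01), in the 6 libraries alone (1.01) and without H20-3 (1.03).

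Contig 13973, a putative polygalacturonase without a symbol, and contig 18989 (QRT3) were highest in H15. QRT3, like QRT2, is known from Arabidopsis for freeing pollen grains from the tetrad. Contig 13973 read 6.48, 4.95 and 4.16 RPKM in H6, 21.6, 19.7 and 19.3 in H9, 68.6, 69.5 and 50.5 in H15, and 42.2, 38.0 and 36.6 in H20. It rose on both early steps (log2 FC 1.95 and 1.78, SE 0.19 and 0.17), with no overlap between any time points. Contig 18989 read 2.32, 3.78 and 1.36 in H6, 4.77, 3.43 and 4.24 in H9, 20.2, 19.9 and 17.3 in H15, and 14.9, 19.0 and 16.8 in H20. Its rise from H9 to H15 was 5.07-fold (log2 FC 2.34, SE 0.26, edgeR adjusted p = 4.3e-06), and H15 and H20 overlapped. The QRT2 contig 17670 rose on the same step, from a mean of 5.72 to 19.1 RPKM (log2 FC 1.88).

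The contig of AT4G23820, the only polygalacturonase called lower between H6 and H20, read 52.9, 60.5 and 65.0 RPKM in H6, 51.1, 44.6 and 48.4 in H9, 24.7, 23.5 and 25.2 in H15, and 11.8, 11.4 and 11.4 in H20. Every time point lay below the one before, without overlap. The called step was the last one, a fall of 2.16-fold from H15 to H20 (log2 FC -1.11, SE 0.11, edgeR adjusted p = 8.3e-06), in a comparison where 8.31% of all contigs fell. H20 stood 4.81-fold below H6, a description as well, since this contig was selected for it.

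Contig 1215 (AT1G23460) was the only polygalacturonase called lower on the step from H9 to H15. Its RPKM was 42.2, 35.0 and 30.8 in H6, 44.9, 39.9 and 53.0 in H9, 20.1, 15.6 and 26.0 in H15, and 25.3, 19.9 and 24.5 in H20. H6 overlapped H9, H15 overlapped H20, and the early libraries lay above the late ones. The log2 FC of -1.03 (SE 0.19, edgeR adjusted p = 2.8e-04) fell short of the fold limit without H9-3 (-0.88), H15-1 (-0.9995) or H15-2 (-0.87). Contig 4477 (AT3G48950) gave -0.99 on the same step and passed the limit in 7 of the alternatives, among them limma on log2(RPKM + 1) (-1.10) and the fit without H15-3 (-1.10). Contig 3495 (AT1G80170) fell from H6 to H9 (log2 FC -1.15), which DESeq2 gave as -0.92.

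PGIP1, contig 9161, encodes a leucine-rich repeat protein of a kind that in other plants blocks the polygalacturonases of fungi. It lay at 8.25, 17.3 and 7.72 RPKM in H6, 3.73, 2.50 and 2.50 in H9, 3.97, 2.35 and 2.64 in H15, and 14.4, 26.5 and 38.6 in H20. H20 was the highest time point, but its lowest library lay below the highest of H6. PGIP1 fell from H6 to H9 (log2 FC -1.94, SE 0.39, edgeR adjusted p = 6.5e-04) and rose from H15 to H20 (log2 FC 3.14, SE 0.40, edgeR adjusted p = 6.0e-05), the largest rise of a member on that step. The difference between H6 and H20 (log2 FC 1.35, edgeR adjusted p = 0.0032) missed the fold limit without H20-3 (0.98).

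Contig 648, the homolog of the beta subunit of polygalacturonase isoenzyme 1, which in tomato is a wall protein that binds the enzyme, passed on no step. It read 116, 121 and 84.4 RPKM in H6, 82.0, 45.3 and 94.6 in H9, 42.0, 45.3 and 47.6 in H15, and 85.8, 75.5 and 80.4 in H20. H15 was the lowest time point apart from H9-2, which lay within its range, and the log2 FC from H15 to H20 was 0.82 (SE 0.23).

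Contigs 9178 and PGIP1 fell from H6 to H9 and rose from H15 to H20 with no call between, a course of 4.88% of the members and 2.32% of all contigs. Contig 2957 did so with a rise between. Heat shock genes also fell on the first step and rose on the last. The summed RPKM of HSP17.6II and HSP70b, the genes found of a list of 3, was 5011 to 5860 in H6, 79.9 to 107 in H9, 50.7 to 52.9 in H15, then 1113 to 1450 in H20. The part of these stress transcripts in the courses of 9178 and PGIP1 was not tested.

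The 3 pectate lyases went in both directions: 9312 and 14616 rose and 480 fell between H6 and H20, where 34.2% of all contigs rose and 37.4% fell. Contig 9312 had been selected for that difference. Their sum was 206 to 217 RPKM in H6, 240 to 260 in H9, 124 to 126 in H15, then 126 to 140 in H20. All 3 were called on the step from H9 to H15, where 43.5% of all contigs were. None was called on the steps before and after (background 36.0% and 13.6%).

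Contig 480 (AT4G13710, annotated as pectate lyase 15) carried 87.8% of the sum in H6. It measured 189, 178 and 190 RPKM in H6, 215, 203 and 211 in H9, 36.2, 34.8 and 37.3 in H15, and 43.7, 37.8 and 39.2 in H20. The early libraries lay far above the late ones. The fall from H9 to H15 was 5.28-fold (log2 FC -2.40, SE 0.10, edgeR adjusted p = 4.4e-09).

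Contig 9312 (AT5G63180, annotated as pectate lyase 22) replaced it as the most abundant lyase in H15 and H20. It read 14.2, 13.9 and 10.2 RPKM in H6, 29.8, 23.5 and 23.6 in H9, 59.0, 61.4 and 60.9 in H15, and 70.6, 61.5 and 70.6 in H20. Every time point lay above the one before, and only H15 and H20 were close. It rose from H9 to H15 (log2 FC 1.38, SE 0.14, edgeR adjusted p = 1.8e-06), while the value from H6 to H9 (log2 FC 0.99, SE 0.14) stood just under the fold limit and passed it in 7 alternatives (1.003 to 1.22), which include leaving out H6-1 (1.08), H6-2 (1.05), H9-2 (1.06) or H9-3 (1.03). Contig 14616, a pectate lyase-like protein, rose on the step from H9 to H15 from 12.9 to 14.7 RPKM to 25.5 to 29.7 (log2 FC 1.18, and 0.98 in limma on log2(RPKM + 1), short of the fold limit). Its rise from H6 to H20 (log2 FC 1.13) missed the limit without H6-3 (0.98) and in that limma fit (0.99).

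Of the 2 pectin acetylesterases, 1285 fell and 3050 rose between H6 and H20, where 37.4% of all contigs fell and 34.2% rose. Contig 1285 (AT4G19420, PAE8 in Arabidopsis) lay at 360, 362 and 354 RPKM in H6, 329, 299 and 328 in H9, 141, 110 and 168 in H15, and 161, 148 and 168 in H20. The early libraries lay above the late ones, and H15 and H20 overlapped. The fall from H9 to H15 (log2 FC -1.05, SE 0.13, edgeR adjusted p = 1.0e-05) missed the fold limit without H15-2 (-0.92), and the fall from H6 to H20 (-1.07) missed it in DESeq2 (-0.78) and in the 6 libraries alone (-0.83).

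Contig 3050 (AT2G46930, PAE3 in Arabidopsis) read 24.8, 20.6 and 20.4 RPKM in H6, 22.6, 14.5 and 14.0 in H9, 52.5, 52.2 and 59.7 in H15, and 83.5, 47.6 and 70.2 in H20. The late libraries lay above the early ones, and H20 was the most scattered. The rise from H9 to H15 was 3.55-fold (log2 FC 1.83, SE 0.22, edgeR adjusted p = 6.6e-06). Contig 1285 remained the more abundant of both in every library, with 94.2% of the class sum in H6 and 70.4% in H20.

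**Figure D5:**
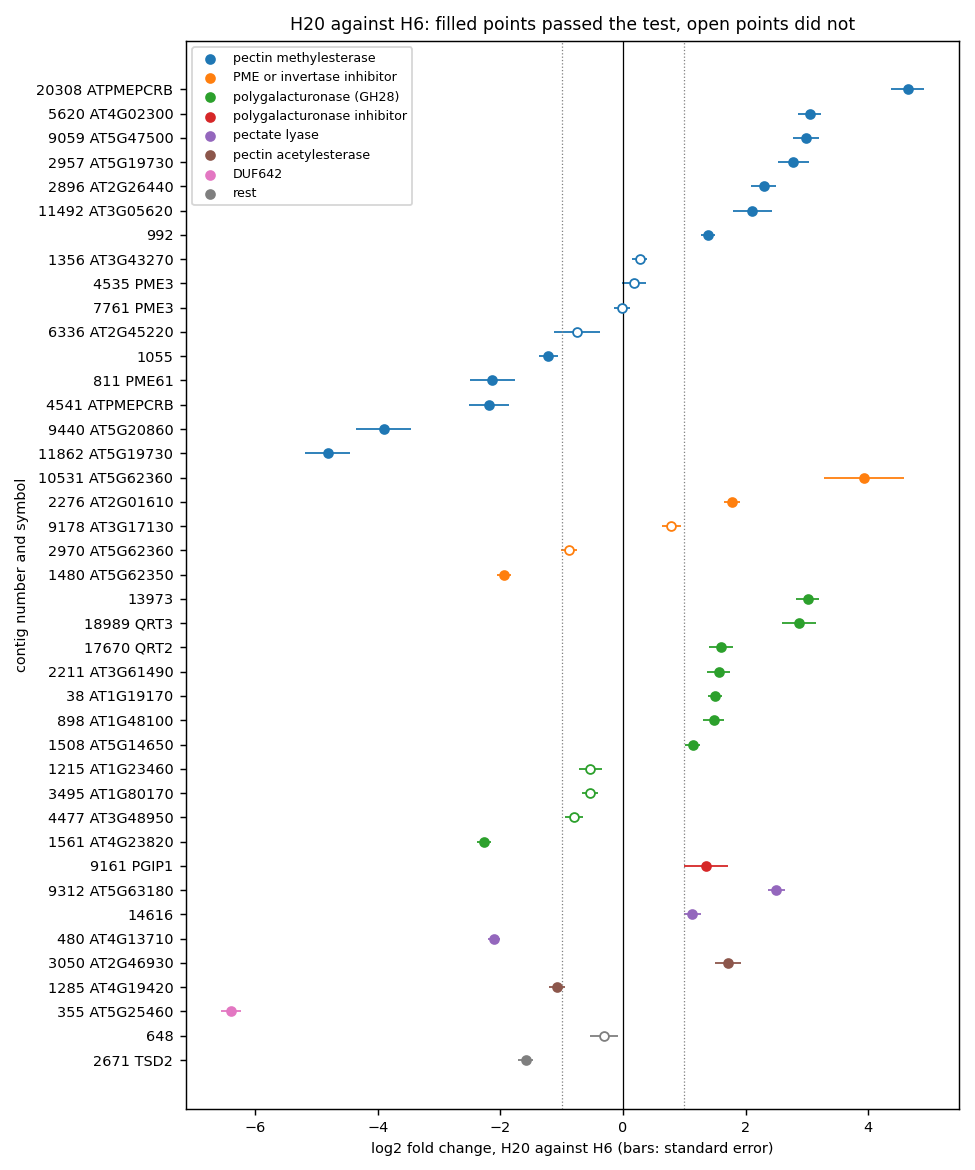
log2 FC of the 41 members, H20 against H6, with standard errors derived from the edgeR F statistic, coloured by class and ordered by value within each class (filled points passed the test, open points did not, dotted lines mark the fold limit of 1). The polygalacturonases lie on the right except for AT4G23820 and 3 open points, whereas the methylesterases spread from -4.82 (11862) to 4.64 (20308), and the DUF642 contig lies farthest left (-6.39).

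The making of pectin was covered by fewer contigs. TSD2 (contig 2671), also known as QUA2, is a Golgi methyltransferase, and Arabidopsis plants without it lose cell adhesion. It read 141, 153 and 196 RPKM in H6, 122, 114 and 124 in H9, 66.7, 65.0 and 68.4 in H15, and 47.4, 51.7 and 53.1 in H20. Each time point lay below the one before. No step passed the fold limit, and the whole interval gave a fall of 3.01-fold (log2 FC -1.59, SE 0.12, edgeR adjusted p = 6.8e-08).

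Of 29 genes listed for homogalacturonan synthesis, 5 were found, TSD2 included. Between H6 and H20, 2 of them rose (GAUT12 and GATL2) and 1 fell (TSD2), where 34.2% of all contigs rose and 37.4% fell. GAUT12, a glycosyltransferase that Arabidopsis needs for the xylan of secondary walls, had a mean of 6.34 RPKM in H6 and 79.2 in H20 (log2 FC 3.75, SE 0.21, edgeR adjusted p = 4.6e-09). GATL2 went from 9.03 to 26.5 RPKM (log2 FC 1.65). GAUT14 (log2 FC 0.995) and GAUT6 (-0.95) missed the fold limit.

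For the nucleotide sugars from which pectin is built, 2 of 14 listed genes were found. UGD4, a UDP-glucose dehydrogenase, rose from H9 to H15 (log2 FC 1.24) and had a mean of 407 RPKM in H20. GAE1, a UDP-glucuronate epimerase that yields the unit of the homogalacturonan chain, fell from 262 to 123 RPKM between H6 and H9 (log2 FC -1.11) and did not pass between H6 and H20 (-0.52). Of 7 genes listed for rhamnogalacturonan, RRT1, which adds rhamnose to the backbone of rhamnogalacturonan I, was found and rose between H6 and H20 (log2 FC 2.73), from a mean of 8.03 RPKM to 49.4.

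Receptors that sense the wall were represented by 2 of 8 listed genes. WAK5, of the wall-associated kinases that bind pectin, fell between H6 and H20 (log2 FC -1.95). The HERK1 contigs, of a receptor kinase tied to cell elongation in Arabidopsis, went apart, with a rise for 14479 (log2 FC 1.29) and a fall for 4382 (log2 FC -1.99). Of 3 listed subtilases, proteases that can process or degrade methylesterases, SBT1.7 was found and rose from 102 to 227 RPKM (log2 FC 1.25).

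Markers of tissues changed over the same days, in a comparison of H20 with H6 where 34.2% of all contigs rose and 37.4% fell. Secondary wall markers (16 contigs of 6 of 7 listed genes, including the cellulose synthases CESA4, CESA7 and CESA8) summed to 273 to 515 RPKM in H6, 1237 to 1855 in H9, 5081 to 5575 in H15, then 4628 to 5676 in H20, and 14 of the 16 rose between H6 and H20. Green cortex markers (7 contigs of 4 genes) went from 8152 to 11885 RPKM in H6 to 4172 to 4253 in H20, and 4 of the 7 fell. Phloem markers, represented by 6 SEOR1 contigs of the sieve elements, summed to 158 to 365 RPKM in H6 and 667 to 758 in H20, and all 6 rose. The cambium genes PXY and WOX4 rose as well, from a sum of 56.3 to 77.3 RPKM to 136 to 160. Vessel maturation markers (MC9 and BFN1) summed to 52.2 to 66.7 RPKM in H6 and 21.1 to 27.6 in H20. BFN1 fell (log2 FC -1.28), and MC9 missed the fold limit (-0.905). No marker found was at 0 in any time point, but neither was any other contig, as the smallest count of a library was 11 to 13 reads. FLA11, XCP1, XCP2, APL, SUC2 and ANT were not analysed here. The part of these changes in tissue makeup in the courses of the pectin genes was not tested.

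Read step by step, 7 of the 41 members (17.1%) rose on one step and fell on another, against 9.55% of all contigs. These were 811, 898, 2957, 5620, 6336, 9178 and PGIP1. A further 8 members (19.5%, against 30.7% of all contigs) were called on none of the 3 steps. Of these, 3 (992, 2276 and 1508) rose and 2 (1055 and TSD2) fell over the whole interval. The libraries of H6 and H20 did not overlap in 36 of the 41 members, a state found in 93.4% of all contigs.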

How the data were processed

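Counts and RPKM of 12 libraries were analysed. The authors assembled contigs de novo, mapped the reads and deposited, per contig and library, the count of uniquely mapped reads and the RPKM made from it with the CLC Genomics Workbench. They kept contigs by an ANOVA on RPKM, whose deposited p-value and FDR columns were not used. Mapped totals were derived from count, RPKM and length. Counts of all 3622 contigs were fitted in 1 model with edgeR 4.0.16 (R 4.3.3), its quasi-likelihood test (8 residual degrees of freedom) and TMM factors of 0.926 to 1.06, with Benjamini-Hochberg adjustment over all contigs. filterByExpr removed 0 contigs. The standard error (SE) of a log2 FC was derived as its absolute value divided by the square root of the edgeR F statistic. TMM assumes that most contigs are unchanged, which cannot be relied on here. Alternatives used limma 3.58.1 and DESeq2 1.42.0, and the fit was tested on simulated data. The simulation changed few contigs, evenly up and down and in H20 alone, so it could not probe this assumption of TMM. Whether libraries with the same replicate number vary together was checked by correlation. Members given in full (26 of 41) were those the selection names, every DUF642 contig and, per class, the 2 highest means and the largest called rise and fall per comparison, and contig 4541 was added after its values were seen. Members, classes and lists were chosen with earlier results of these data known. P-values measure the spread between pools of 1 batch.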

Additional observations from a re-analysis of the deposited data

How the results depend on the processing

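Of the 164 member calls (41 contigs, 4 comparisons), 22 changed under at least 1 alternative, 14 of them when a library was left out, and 0 turned to the opposite direction. Members changed numbered 15 to 19 (H9 against H6), 20 to 24 (H15 against H9), 7 to 8 (H20 against H15) and 30 to 31 (H20 against H6) when 1 library was left out. The counts moved by over 1.5 times only where members were dropped. With enzymes acting on pectin alone (32 contigs), 5 fell from H6 to H9 in place of 9 and 2 rose from H15 to H20 in place of 4. Without the 5 contigs named by number or locus, an alternative added after seeing the data, 2 fell from H15 to H20 in place of 4.

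DESeq2's size factors moved the median of all contigs by 0.29 (H20 against H6) and 0.23 (H9 against H6) on the log2 scale, the fit of 6 libraries moved the former by 0.24, and omitting TMM moved it by -0.10 and H15 against H9 by -0.14 (limma on log2(RPKM + 1) and on log2(RPKM + 0.1) by -0.12 and -0.13). With the replicate block, 17, 24, 7 and 31 members changed in the 4 comparisons. Pairing was checked on log2(RPKM + 1) after the mean of each time point was subtracted per contig. On these deviations, libraries of different time points with the same number correlated at a median of 0.038 (-0.28 to 0.26, 18 pairs). Those with different numbers gave -0.018 (-0.305 to 0.306, 36 pairs), so the numbers were not taken to pair libraries.

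The values that turned their sign had not passed the test. For 2276, H20 against H15 (-0.016), they were 0.012 without TMM, 0.030 in DESeq2, 0.013 in both limma fits, 0.041 in the 6 libraries, and -0.107 to 0.067 with 1 library left out. For 1285, H9 against H6 (-0.18), DESeq2 gave 0.046. Leaving out 1 library gave -0.053 to 0.667 for 10531 and -0.037 to 0.208 for AT5G47500 (H20 against H15), and -0.072 to 0.365 for PGIP1 and -0.558 to 0.293 for 9440 (H15 against H9). The causes were not tested. Contigs under about 1 RPKM in H20 (11862, 9440) rest on as few as 11 reads.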
